A study of Mus musculus with 12 samples.

Results

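The cell division genes were a set of 45 mouse genes, chosen by symbol, that carry out or regulate the cell cycle. Of the 45, 44 had an array probe set with a single gene symbol, out of 18194 genes measured in that way. The remaining gene, Ccnb1, was not analysed here. Where a gene had several probe sets, the one with the highest mean over the 12 arrays stood for it. By role, the measured genes were 11 of replication licensing and DNA synthesis, 8 G1 cyclins and kinases, 3 of 4 S and M phase cyclins and their kinase Cdk1, 3 Cip/Kip inhibitors, 7 mitotic kinases, checkpoint proteins and regulators of the anaphase-promoting complex, 9 spindle, kinetochore and chromosome proteins, and 3 transcription factors. The choice used no measured value of these arrays, but earlier results of the same data were known when it was made.

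Each of 12 Affymetrix arrays, a type that reads the 3' ends of transcripts, was hybridised with total RNA from 1 spinal cord sample. Cords of Olig2cre/DA-Cat mice and of wild-type mice were taken at day 15 and at day 4, which made 4 groups of 3 biological replicates. Olig2cre mice make Cre recombinase where the Olig2 gene is active, which includes cells of the oligodendrocyte lineage and, in the embryo, motor neuron progenitors. DA-Cat is β-catenin in a dominant-active form, and β-catenin carries the canonical Wnt signal to the nucleus. The wild-type mice were littermates, and none of the groups carried Cre without DA-Cat, so effects of Cre and of the activated β-catenin cannot be told apart. The labels tag day as a developmental stage. The accompanying protocol describes lysolecithin lesions of white matter in 8- to 10-wk-old adults collected either with or without a lesion, and mentions neither day. Whether the arrays hold lesioned tissue, the age of the mice and what the days are counted from were therefore not settled. The sample titles give spinal cord and the source names ventrolateral white matter. A list of 10 neuron marker genes had a mean log2 signal between 12.12 and 12.45 on every array, against array medians of 6.14 to 6.19. The number of animals behind a sample is not stated, so p-values measure the spread between these samples.

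Axin2, a feedback target of β-catenin, served as a check of the genotype labels. Its log2 signal at day 15 was 7.87 ± 0.09 in Olig2cre/DA-Cat and 7.35 ± 0.14 in wild-type cords, and at day 4 it was 8.90 ± 0.09 in Olig2cre/DA-Cat and 7.85 ± 0.10 in wild-type cords (SD, n = 3 each). The differences were 0.51 at day 15 (adjusted p = 0.0057) and 1.05 at day 4 (adjusted p = 1.16e-05), both from the limma fit. Ctnnb1, which encodes β-catenin itself, did not pass the test (-0.07 at day 15 and -0.05 at day 4), and whether its probe set reads the DA-Cat transcript is not given.

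A dividing cell passes from G1, where D and E cyclins with Cdk4, Cdk6 and Cdk2 inactivate the retinoblastoma proteins and free E2F factors, through S phase, where the MCM helicase loaded in G1 unwinds the origins, to mitosis, driven by Cdk1 with A and B cyclins. The anaphase-promoting complex then destroys the cyclins, and Cip/Kip inhibitors hold cells in G1 or out of the cycle. In the spinal cord, glial precursors divide before they become myelinating oligodendrocytes or mature astrocytes, and most neurons have already left the cycle. In bulk tissue RNA, fewer dividing cells and less of a transcript per cell cannot be told apart.

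Promoter sequences are shown first, because the genes of S phase and of mitosis are known to be controlled through different short elements. Genes of DNA replication often hold an E2F element, and mitotic genes a cell cycle genes homology region (CHR) bound by the DREAM and MuvB complexes, with CCAAT boxes bound by NF-Y nearby. RefSeq promoters on GRCm38.p6, from 250 bases before to 50 after the start, were searched on both strands for the CHR letters TTTGAA and TTCGAA, the E2F letters TTTGGCGC, TTTCGCGC, TTTCCCGC and TTTGCCGC, and CCAAT. Of the 45 genes, 35 had a promoter in the table. The 6 printed below were picked because they hold the motif known for their role. They run from 160 bases before to 20 after the start, 5′ to 3′ on the strand of the gene. Capitals mark matches on either strand, so that ATTGG is CCAAT and TTCAAA is TTTGAA read from the other strand.

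Mcm5 (chr8:75109349-75109528, plus strand) and Mcm6 (chr1:128359686-128359865, minus strand) encode subunits of the replicative helicase and stand for the E2F pattern. In each, 2 E2F matches on opposite strands overlap in one run of capitals.
Mcm5: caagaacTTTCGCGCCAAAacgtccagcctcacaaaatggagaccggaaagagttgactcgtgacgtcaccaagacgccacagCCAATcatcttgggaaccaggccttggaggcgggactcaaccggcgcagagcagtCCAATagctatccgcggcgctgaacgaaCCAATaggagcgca
Mcm6: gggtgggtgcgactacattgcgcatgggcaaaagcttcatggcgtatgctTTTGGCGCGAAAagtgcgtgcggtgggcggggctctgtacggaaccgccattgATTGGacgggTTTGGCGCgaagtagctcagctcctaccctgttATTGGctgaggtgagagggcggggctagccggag

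The other 4 stand for the CHR pattern. Cdk1 (chr10:69352893-69353072, minus strand) encodes the mitotic kinase and holds an E2F match as well. Ccnb2 (chr9:70421535-70421714, minus strand) encodes cyclin B2. Cdc20 (chr4:118437324-118437503, minus strand) encodes the activator of the anaphase-promoting complex, and Ube2c (chr2:164769769-164769948, plus strand) the ubiquitin-conjugating enzyme of that complex. The CHR match nearest the start lay 33 bases downstream of the closest CCAAT box upstream of it in Cdk1, 25 in Ccnb2, 35 in Cdc20 and 28 in Ube2c, counted from first base to first base. The other CHR match of Cdk1 lay 9 bases downstream of its closest box. Spacing was counted for these 4 genes only and does not stand for the other mitotic genes. In Bub1b, for example, the CCAAT box began at -113 and the CHR letters nearest the start at 40.
Cdk1: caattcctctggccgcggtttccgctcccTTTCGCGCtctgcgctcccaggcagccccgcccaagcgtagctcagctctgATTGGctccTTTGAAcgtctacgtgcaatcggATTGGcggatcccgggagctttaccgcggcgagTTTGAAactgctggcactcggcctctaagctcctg
Ccnb2: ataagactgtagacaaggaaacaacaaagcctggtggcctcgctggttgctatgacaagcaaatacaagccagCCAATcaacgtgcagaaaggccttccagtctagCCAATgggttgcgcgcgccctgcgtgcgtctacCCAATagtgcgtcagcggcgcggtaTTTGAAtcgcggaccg
Cdc20: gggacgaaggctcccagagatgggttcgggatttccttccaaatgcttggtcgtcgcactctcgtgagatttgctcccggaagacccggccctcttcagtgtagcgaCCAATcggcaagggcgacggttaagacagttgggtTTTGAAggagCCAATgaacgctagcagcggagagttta
Ube2c: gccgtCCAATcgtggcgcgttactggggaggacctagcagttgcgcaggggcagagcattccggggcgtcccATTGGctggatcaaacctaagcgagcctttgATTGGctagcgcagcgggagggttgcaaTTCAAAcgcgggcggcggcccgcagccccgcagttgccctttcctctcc

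Among the 35 genes with a promoter, 15 (42.9%) held CHR letters, 8 (22.9%) E2F letters and 26 (74.3%) a CCAAT box. Over all 27025 genes in the table the shares were 21.7%, 2.6% and 41.1%. CHR letters were found in 12 of 16 mitotic genes and in 2 of 10 replication genes, and E2F letters in 1 of the 16 and in 5 of the 10. All 6 mitotic kinases, checkpoint proteins and regulators of the anaphase-promoting complex with a promoter (Plk1, Aurka, Bub1, Bub1b, Cdc20 and Ube2c) held both CHR letters and a CCAAT box. The replication genes with E2F letters were Mcm3, Mcm5, Mcm6, Mcm7 and Cdc6. None of the 5 G1 genes with a promoter held CHR letters. These matches describe the letters in the window and are not shown to be bound.

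**Figure D1:**
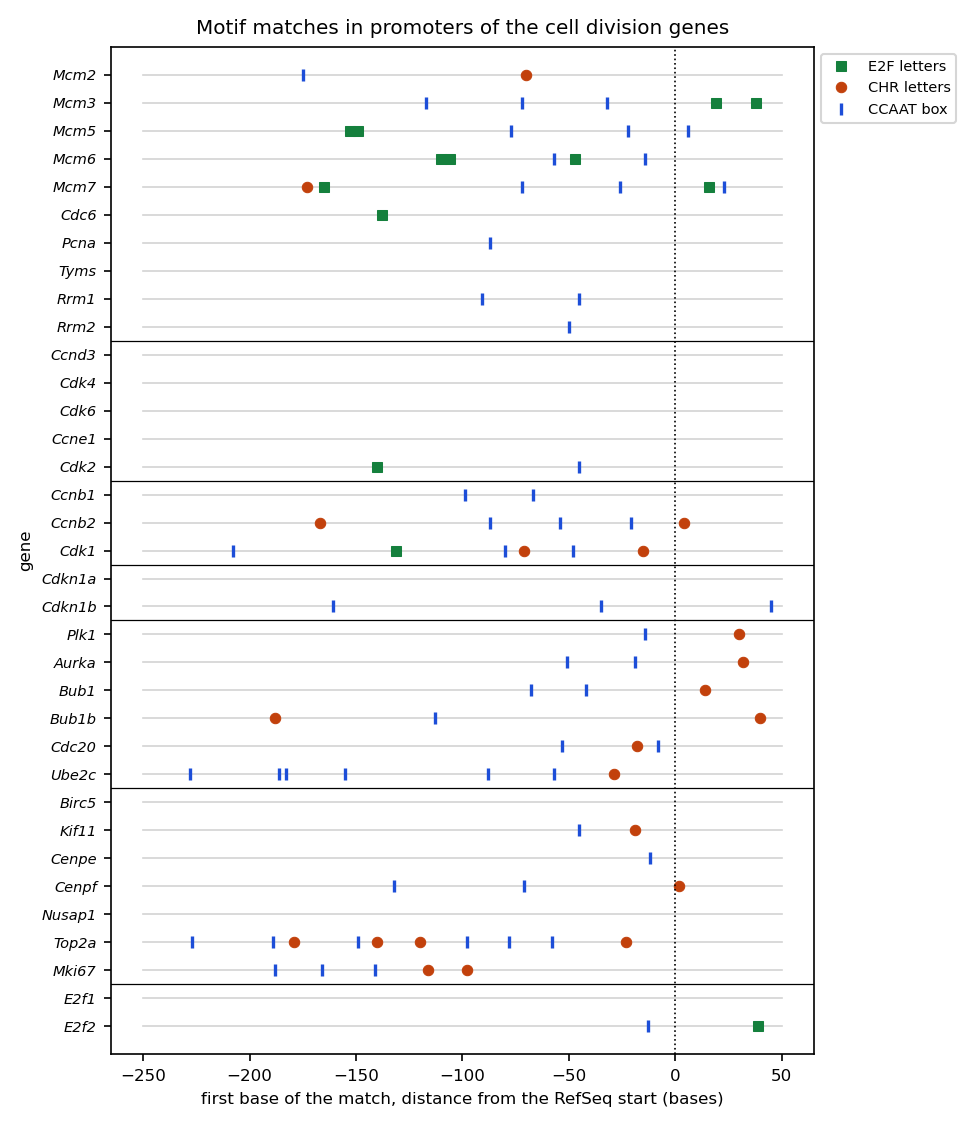
Positions of motif matches in the first RefSeq promoter of 35 genes, by role from top to bottom (horizontal lines); the x axis is the distance in bases of the match's first base from the gene's start (dotted line). E2F letters (squares) lie mainly in the replication genes at the top, CHR letters (circles) in the mitotic genes, and CCAAT boxes (bars) in both.

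Most cell division genes fell between day 4 and day 15, in both genotypes. Over all 18194 genes, 26.3% fell and 21.8% rose in Olig2cre/DA-Cat, and 23.6% fell and 21.3% rose in wild type (limma, Benjamini-Hochberg adjusted p under 0.05). Of the 44 cell division genes, 37 fell and 2 rose in Olig2cre/DA-Cat cords, and 36 fell and 1 rose in wild-type cords. The median change, day 15 minus day 4, was -0.95 log2 in Olig2cre/DA-Cat and -0.90 log2 in wild type. Over all genes it was 0.00 in Olig2cre/DA-Cat and -0.02 in wild type. At least a 2-fold fall was measured for 21 genes in Olig2cre/DA-Cat and for 19 in wild type. In both genotypes 36 genes fell, and 1 more, Tyms, did so in Olig2cre/DA-Cat. For the 2-fold falls and for the falls in both genotypes, the shares over all genes were not computed.

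**Figure D2:**
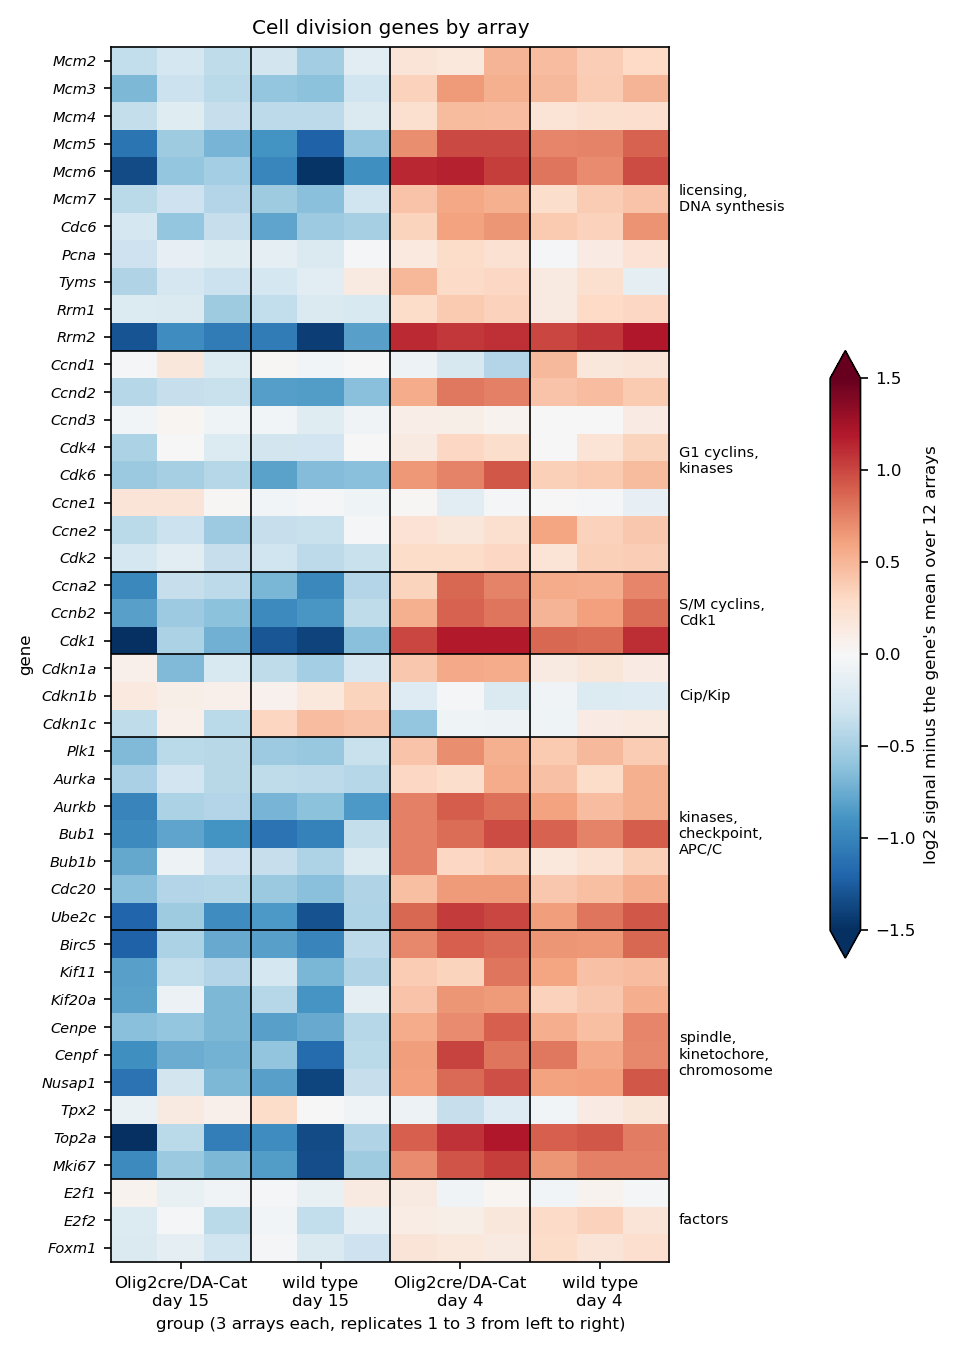
Log2 signal of the 44 measured cell division genes on each array, minus the gene's mean over the 12 arrays (colour, capped at -1.5 and 1.5), with genes grouped by role. The day 15 arrays on the left are low and the day 4 arrays on the right high in most replication and mitotic genes. With the brightest probe set shown, Ccnd1, Ccnd3, Ccne1, Cdkn1b, Cdkn1c, Tpx2 and E2f1 had no fall past the test in either genotype.

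The genes of replication licensing and DNA synthesis fell as a group: 11 of 11 in Olig2cre/DA-Cat and 10 of 11 in wild type, with medians of -0.90 in Olig2cre/DA-Cat and -0.84 in wild type. By the brightest probe sets, Rrm2, the small subunit of ribonucleotide reductase, which makes deoxynucleotides, had the largest change of all 44 genes. Its log2 signals in Olig2cre/DA-Cat were 6.90, 7.26 and 7.15 at day 15, against 9.31, 9.25 and 9.29 at day 4. In wild type they were 7.15, 6.78 and 7.38 at day 15, against 9.2, 9.25 and 9.40 at day 4. The days lay far apart and the genotypes overlapped, with a fall of 4.53-fold in Olig2cre/DA-Cat (adjusted p = 6.86e-08) and 4.54-fold in wild type (adjusted p = 9.59e-08). Another Rrm2 probe set gave changes of -1.13 log2 in Olig2cre/DA-Cat and -1.27 log2 in wild type. With the mean of a gene's sets, Rrm2 changed by -1.88 log2 in Olig2cre/DA-Cat and -1.86 log2 in wild type. Cdk1 then changed more, by -2.08 log2 in Olig2cre/DA-Cat and -2.02 log2 in wild type.

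Mcm5 had log2 signals of 6.74, 7.31 and 7.14 at day 15 and of 8.54, 8.83 and 8.83 at day 4 in Olig2cre/DA-Cat. The wild-type signals were 6.94, 6.63 and 7.25 at day 15, against 8.57, 8.59 and 8.72 at day 4. All day 15 values lay below all day 4 values, and the changes were -1.67 ± 0.16 log2 in Olig2cre/DA-Cat (SE, adjusted p = 3.31e-06) and -1.69 ± 0.16 log2 in wild type (adjusted p = 3.69e-06). Mcm6, another helicase subunit, fell by 1.92 log2 in Olig2cre/DA-Cat and 1.95 in wild type. Mcm2, also of the helicase, fell by 0.63 in Olig2cre/DA-Cat and 0.69 in wild type. Pcna, the sliding clamp of the DNA polymerases, had the smallest falls that passed the test in the group, with changes of -0.42 log2 in Olig2cre/DA-Cat (adjusted p = 0.000758) and -0.23 log2 in wild type (adjusted p = 0.0347). The wild-type call of Pcna was lost without day 4 replicate 2 or 3 and without day 15 replicate 1 or 2 (adjusted p = 0.0841 to 0.129), with each array centred on its median (0.0573), with the level of the sex-linked gene Eif2s3y as a covariate (0.0655) and with the compared groups alone (0.0599). Tyms, thymidylate synthase, fell by 0.71 in Olig2cre/DA-Cat and changed by -0.17 in wild type (adjusted p = 0.27), but its mean level was under 5 log2 in all groups, close to the dim end of the arrays. Its 3 other probe sets, dimmer still, gave 0.03, -0.17 and 0.11 in Olig2cre/DA-Cat, none past the test, and with the mean of the sets the fall was 0.18 (adjusted p = 0.0317).

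The G1 cyclins and kinases were mixed, with 5 of 8 falling in each genotype and median changes of -0.50 in Olig2cre/DA-Cat and -0.51 in wild type. Ccnd2, cyclin D2, fell by 1.07 log2 in Olig2cre/DA-Cat (adjusted p = 2.46e-07) and 1.19 in wild type (adjusted p = 1.49e-07). Cdk6, a partner kinase of the D cyclins, fell by 1.27 in Olig2cre/DA-Cat (adjusted p = 1.03e-07) and 1.10 in wild type (adjusted p = 4.11e-07). Cdk4, Ccne2 and Cdk2 also fell in both genotypes, by 0.36 to 0.68 log2, and the wild-type call of Cdk4 was lost without day 4 replicate 2 or 3 and without day 15 replicate 1 or 2 (adjusted p = 0.0858 to 0.125) and with the Eif2s3y covariate (0.0611). The other D cyclins did not pass the test in the main fit. Ccnd1, cyclin D1, changed by 0.23 in Olig2cre/DA-Cat (adjusted p = 0.117) and -0.29 in wild type (adjusted p = 0.0544). Its wild-type fall passed in 8 of 17 alternative settings, among them the mean of its probe sets (-0.31, adjusted p = 0.00504). One of its other probe sets gave -0.42 there (adjusted p = 0.0148 over all probe sets). The rise of Ccnd1 in Olig2cre/DA-Cat passed in 3 of 17 settings. Ccnd3, cyclin D3, changed by -0.11 in Olig2cre/DA-Cat (adjusted p = 0.18) and -0.13 in wild type (adjusted p = 0.11). Ccne1, cyclin E1, rose by 0.19 in Olig2cre/DA-Cat (adjusted p = 0.0441) and changed by 0.01 in wild type. That call was lost without Olig2cre/DA-Cat day 4 replicate 2 or 3, without day 15 replicate 1 or 2 (adjusted p = 0.067 to 0.18) and in 4 other settings, among them each array centred on its median (adjusted p = 0.0573).

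All 3 measured genes of the S and M phase cyclin group fell in both genotypes, with a median of -1.39 in each. Ccnb2 had log2 signals of 5.62, 5.89 and 5.81 at day 15, against 6.96, 7.31 and 7.23 at day 4, in Olig2cre/DA-Cat. Wild-type cords gave 5.47, 5.56 and 6.05 at day 15, against 6.94, 7.04 and 7.27 at day 4. Day 15 was below day 4 on every array, with a change of -1.39 ± 0.15 log2 in each genotype (SE, adjusted p = 7.4e-06 in Olig2cre/DA-Cat and 9.15e-06 in wild type).

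Cdk1 had 5.91, 7.12 and 6.87 at day 15, against 8.59, 8.78 and 8.78 at day 4, in Olig2cre/DA-Cat, and 6.31, 6.21 and 6.97 at day 15, against 8.45, 8.43 and 8.70 at day 4, in wild type. The days did not overlap, while the day 15 replicates spread over more than 1 log2 in Olig2cre/DA-Cat. The changes were -2.08 ± 0.27 log2 in Olig2cre/DA-Cat (SE, adjusted p = 3.46e-05) and -2.03 ± 0.27 in wild type (adjusted p = 5.07e-05). Ccna2, cyclin A2, which acts in S phase and at the entry to mitosis, fell by 1.21 log2 in Olig2cre/DA-Cat and 1.31 in wild type.

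The Cip/Kip inhibitors did not move together. Cdkn1b, p27, rose in both genotypes, by 0.25 log2 in Olig2cre/DA-Cat (adjusted p = 0.0212) and 0.34 log2 in wild type (adjusted p = 0.00384). Its signals were 9.49, 9.43 and 9.42 at day 15, against 9.15, 9.32 and 9.12 at day 4, in Olig2cre/DA-Cat, and 9.41, 9.50 and 9.68 at day 15, against 9.29, 9.13 and 9.15 at day 4, in wild type. Cdkn1a, p21, a target of p53, fell by 0.78 log2 in Olig2cre/DA-Cat (adjusted p = 0.000644) and 0.53 in wild type (adjusted p = 0.00936). It had 9.83, 9.09 and 9.53 at day 15, against 10.16, 10.32 and 10.31 at day 4, in Olig2cre/DA-Cat, and 9.37, 9.24 and 9.50 at day 15, against 9.89, 9.94 and 9.88 at day 4, in wild type. The days were separate for both genes in each genotype. The call of Cdkn1b in Olig2cre/DA-Cat was lost without day 4 replicate 1 or 3 and without day 15 replicate 1 (adjusted p = 0.0656 to 0.085), with the mean of its probe sets (0.061) and with the Eif2s3y covariate (0.0581). Cdkn1c, p57, changed by 0.01 in Olig2cre/DA-Cat (adjusted p = 0.98) and 0.34 in wild type (adjusted p = 0.0883).

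All 7 mitotic kinases, checkpoint proteins and regulators of the anaphase-promoting complex fell in both genotypes, with medians of -1.07 in Olig2cre/DA-Cat and -1.01 in wild type. Cdc20 had log2 signals of 6.91, 7.09 and 7.11 at day 15, against 7.98, 8.17 and 8.17 at day 4, in Olig2cre/DA-Cat. In wild type the values were 6.98, 6.90 and 7.08 at day 15, against 7.94, 7.98 and 8.08 at day 4. Its replicates lay close together, and it fell 2.10-fold in Olig2cre/DA-Cat (adjusted p = 3.66e-07) and 2.01-fold in wild type (adjusted p = 7.39e-07). Bub1, a kinase of the spindle checkpoint, fell by 1.74 ± 0.16 log2 in Olig2cre/DA-Cat (SE, adjusted p = 1.66e-06) and 1.67 ± 0.16 in wild type (adjusted p = 2.92e-06).

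For Bub1 the signals were 5.32, 5.48 and 5.38 at day 15, against 7.03, 7.11 and 7.25 at day 4, in Olig2cre/DA-Cat, and 5.16, 5.26 and 5.92 at day 15, against 7.16, 7.01 and 7.18 at day 4, in wild type. Wild-type replicate 3 stood above the other day 15 arrays and still below every day 4 array. In Olig2cre/DA-Cat, Ube2c fell by 1.85 log2, Aurkb, the kinase of the chromosomal passenger complex, by 1.47, and Plk1, polo-like kinase 1, by 1.05. Aurka, aurora kinase A of the centrosome, fell there by 0.77 and Bub1b, the checkpoint protein BubR1, by 0.87. In wild type, Ube2c fell by 1.66, Aurkb by 1.26, Plk1 by 0.90, Aurka by 0.82 and Bub1b by 0.59.

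Of the 9 spindle, kinetochore and chromosome genes, 8 fell in each genotype, with median changes of -1.5 in Olig2cre/DA-Cat and -1.41 in wild type. Cenpe, a kinetochore motor, had log2 signals of 5.12, 5.17 and 5.07 at day 15, against 6.30, 6.46 and 6.64 at day 4, in Olig2cre/DA-Cat. Its wild-type signals were 4.93, 4.99 and 5.32 at day 15, against 6.29, 6.20 and 6.48 at day 4. All day 15 arrays were below all day 4 arrays, with changes of -1.35 ± 0.11 log2 in Olig2cre/DA-Cat (SE, adjusted p = 9e-07) and -1.25 ± 0.11 in wild type (adjusted p = 2.18e-06).

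Mki67, the Ki-67 protein that coats mitotic chromosomes and is used to stain dividing cells, had 7.09, 7.49 and 7.37 at day 15, against 8.75, 8.99 and 9.08 at day 4, in Olig2cre/DA-Cat. Wild type gave 7.20, 6.71 and 7.51 at day 15, against 8.70, 8.80 and 8.80 at day 4. It fell 3.09-fold in Olig2cre/DA-Cat (adjusted p = 5.96e-06) and 3.08-fold in wild type (adjusted p = 7.21e-06). In Olig2cre/DA-Cat, Top2a, topoisomerase II alpha, which untangles chromosomes, fell by 2.09 log2, Birc5, survivin, by 1.64, Cenpf, a kinetochore protein, by 1.61 and Nusap1, a microtubule-binding protein of the spindle, by 1.5. In wild type, Top2a fell by 1.78, Birc5 by 1.46, Cenpf by 1.41 and Nusap1 by 1.56. These values are of the brightest probe set. With the mean of a gene's sets Top2a fell by 0.89 in Olig2cre/DA-Cat and 0.94 in wild type, Cenpf by 0.64 in both, and Nusap1 by 0.74 in Olig2cre/DA-Cat and 0.88 in wild type, all past the test. The dimmest sets of Top2a, Cenpf and Nusap1 gave -0.07, -0.02 and 0.02 in Olig2cre/DA-Cat, none past the test. Over both genotypes, the motors Kif20a and Kif11 fell by 0.91 to 1.10 log2.

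The exception among the spindle genes was Tpx2, an activator of aurora kinase A, with changes of 0.24 in Olig2cre/DA-Cat (adjusted p = 0.0723) and -0.01 in wild type (adjusted p = 0.945). Its direction depended on the probe set. The brightest set and one more gave changes between -0.01 and 0.24, whereas the other 2 gave -1.10 and -1.27 in Olig2cre/DA-Cat and -0.98 and -0.83 in wild type, with adjusted p-values from 8.08e-06 to 0.000462 over all probe sets. With the mean of its probe sets, Tpx2 fell by 0.51 log2 in Olig2cre/DA-Cat (adjusted p = 0.000217).

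Of the 3 transcription factors, Foxm1 and E2f2 fell in both genotypes and E2f1 did not pass the test. Foxm1, which drives genes of G2 and mitosis, had 6.71, 6.8 and 6.63 at day 15, against 7.13, 7.09 and 7.07 at day 4, in Olig2cre/DA-Cat, and 6.90, 6.71 and 6.62 at day 15, against 7.21, 7.12 and 7.18 at day 4, in wild type. E2f2, an activating E2F factor, had 6.74, 6.91 and 6.53 at day 15, against 7.05, 7.03 and 7.11 at day 4, in Olig2cre/DA-Cat, and 6.90, 6.57 and 6.8 at day 15, against 7.23, 7.28 and 7.13 at day 4, in wild type. Both were lower at day 15 on every array, and the groups of the same genotype did not overlap. Foxm1 fell by 0.38 log2 in Olig2cre/DA-Cat (adjusted p = 0.00101) and 0.42 in wild type (adjusted p = 0.00049). E2f2 fell by 0.34 in Olig2cre/DA-Cat (adjusted p = 0.0159) and 0.46 in wild type (adjusted p = 0.00281). Its Olig2cre/DA-Cat call was lost without day 4 replicate 3 (adjusted p = 0.0535), without day 15 replicate 3 (0.072) and with the mean of its probe sets (0.0614). E2f1, the founding member of the E2F family, changed by -0.07 in Olig2cre/DA-Cat and 0.02 in wild type.

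**Figure D3:**
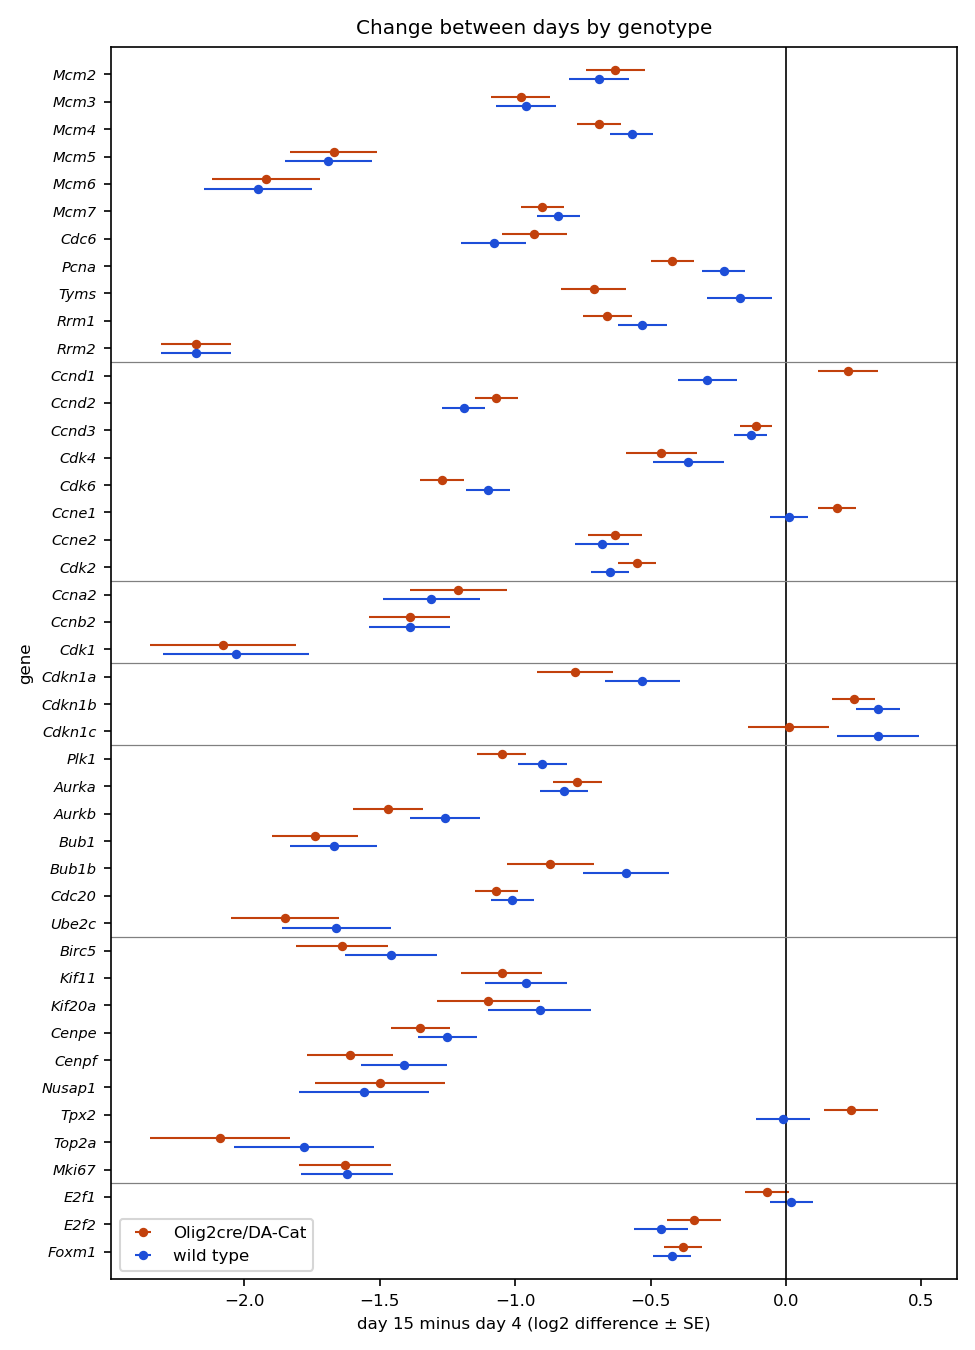
Change between days (day 15 minus day 4, log2 difference ± SE from the limma fit) of each cell division gene in Olig2cre/DA-Cat and in wild-type cords, genes grouped by role. In 35 of 44 genes the estimates of the genotypes lie within 0.2 log2 of each other, and the largest fall is -2.18 in both. The quartiles of the gap, Olig2cre/DA-Cat minus wild type, are -0.17 and 0.05 over the 44 genes. Over all genes they are -0.12 and 0.09, so the closeness is not particular to these genes.

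The 44 genes had 107 probe sets in all, and 33 of the genes had more than 1. In Olig2cre/DA-Cat 76 probe sets fell and 3 rose between the days, and in wild type 73 fell and 2 rose. The shares over all probe sets of the arrays were not computed. At least 1 falling probe set was found for 38 genes in each genotype. A gene with several sets has more chances to enter this count, so it does not compare with the shares over all genes. Foxm1 also had a rising set, a dim one with a mean of 2.87 log2 and a change of 0.24 in Olig2cre/DA-Cat. With the mean of a gene's probe sets in place of the brightest, the fall was smaller by more than 1.5 times for 10 genes in Olig2cre/DA-Cat and 9 in wild type, and each of these still passed the test. Over both genotypes they were Aurka, Bub1, Cdk2, Cdk6, Cenpf, Foxm1, Kif11, Mcm3, Nusap1, Top2a and Tyms, with falls of 0.18 to 1.07 log2. Across the 44 genes the day changes of the genotypes, which share no array but share the estimate of each gene's spread, had a Pearson correlation of 0.965. The correlation over all genes was not computed, so this value is not shown to be particular to these genes.

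The fall extended to other cell cycle genes, taken as lists with earlier results known. For comparison, 26.3% of all genes fell and 21.8% rose in Olig2cre/DA-Cat, and 23.6% fell and 21.3% rose in wild type. Of 28 further replication genes, 22 fell and 2 rose in Olig2cre/DA-Cat, and 21 fell and 2 rose in wild type (medians -0.56 in Olig2cre/DA-Cat and -0.52 in wild type). In Olig2cre/DA-Cat, Cdt1, a licensing factor, fell by 1.41 log2, and both Dbf4, the activator of the Cdc7 kinase, and Pole, the catalytic subunit of DNA polymerase epsilon, by 1.21. In wild type, Cdt1 fell by 1.48, Dbf4 by 0.88 and Pole by 1.14. Of 39 further genes of mitosis and cytokinesis, 32 fell and 2 rose in Olig2cre/DA-Cat, and 34 fell and 2 rose in wild type (medians -0.84 in Olig2cre/DA-Cat and -0.75 in wild type). Ect2, the exchange factor that sets up the cleavage furrow, fell by 1.59 in Olig2cre/DA-Cat and 1.30 in wild type. Racgap1, which binds Ect2 and is part of centralspindlin, fell by 0.91 in both.

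Anln was an exception in that list. It encodes anillin, a scaffold of the cytokinetic ring that is also strongly expressed by myelinating oligodendrocytes. It rose by 2.74 log2 in Olig2cre/DA-Cat (adjusted p = 2.05e-09) and 2.98 log2 in wild type (adjusted p = 3.61e-09). Of 37 other regulators of the cycle, 19 fell and 6 rose in Olig2cre/DA-Cat, and 18 fell and 7 rose in wild type (medians -0.28 in Olig2cre/DA-Cat and -0.15 in wild type). The rises were no more frequent than over all genes, where 21.8% rose in Olig2cre/DA-Cat and 21.3% in wild type. Cks2, a Cdk-binding subunit, fell by 1.44 in Olig2cre/DA-Cat and 1.52 in wild type, and Cdc25b, a phosphatase that activates Cdk1, by 1.00 in Olig2cre/DA-Cat and 0.95 in wild type. Wee1, the inhibitory kinase of Cdk1, rose by 1.08 in Olig2cre/DA-Cat and 0.87 in wild type. Gadd45a, a growth arrest and DNA damage gene, rose by 0.88 in Olig2cre/DA-Cat and 0.98 in wild type.

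Markers of several cell types moved with day, and their part in the fall of the cell division genes was not tested. The 11 myelinating oligodendrocyte markers all rose in both genotypes, by medians of 3.28 log2 in Olig2cre/DA-Cat and 1.48 in wild type. Their mean level was 11.86 to 12.21 in Olig2cre/DA-Cat at day 15 and 8.46 to 8.63 at day 4, and 12.63 to 12.71 in wild type at day 15 and 10.63 to 10.83 at day 4. Of 10 microglia and macrophage markers, 8 rose in Olig2cre/DA-Cat and 10 in wild type, with mean levels of 8.38 to 8.67 at day 15 and 7.76 to 8.01 at day 4 over both genotypes. Of 11 oligodendrocyte precursor markers, 5 rose and 3 fell in Olig2cre/DA-Cat, and 3 rose and 3 fell in wild type. Of 10 astrocyte markers, 7 rose and 2 fell in Olig2cre/DA-Cat, and 6 rose and 2 fell in wild type.

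Some markers in other lists fell. These counts and those of the lists above are to be read beside the shares over all genes. Those were 26.3% falling and 21.8% rising in Olig2cre/DA-Cat, and 23.6% falling and 21.3% rising in wild type. Of 8 meningeal and fibroblast markers, 2 fell and 1 rose in Olig2cre/DA-Cat (median -0.48 log2), and 4 fell in wild type (median -0.71 log2). Their mean level in Olig2cre/DA-Cat was 9.18 to 9.69 at day 15 and 9.64 to 10.03 at day 4, and in wild type 8.38 to 9.56 at day 15 and 9.26 to 9.91 at day 4. Of 10 neuron markers, 3 fell and 3 rose in Olig2cre/DA-Cat (median -0.12 log2), and 6 fell and 3 rose in wild type (median -0.22 log2). Of 8 endothelial markers, 2 fell and 4 rose in Olig2cre/DA-Cat, and 3 fell and 3 rose in wild type.

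Few of the cell division genes passed the test between genotypes, and few of all genes did. At day 15, 1 of 44 was higher in Olig2cre/DA-Cat than in wild type (Ccnd2) and 1 lower (Cdkn1c), where 0.616% of all genes were higher and 2.31% lower. At day 4, 1 was higher (Cdk6) and 1 lower (Ccnd1), where 1.3% of all genes were higher and 1.81% lower. Averaged over the days, Ccnd2 and Cdk6 were higher and Cdkn1c lower, where 4.19% of all genes were higher and 4.12% lower. The median difference over the 44 genes was 0.00 at day 15, 0.09 at day 4 and 0.05 on average, and over all genes it was 0.02 at day 15, 0.03 at day 4 and 0.02 for the average. All 4 genes that passed a test belong to the G1 cyclins and kinases or the Cip/Kip inhibitors. With so few calls, in both directions, this is not read as a trait of these roles. Each call at a single day was lost in some alternative settings, given below.

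Groups that did not overlap were counted against the share over all genes. At day 15 all Olig2cre/DA-Cat values lay above all wild-type values for 3 genes (Ccnd2, Cdk6 and Ccne1), against 10.6% of all genes, and below them for 1 (Cdkn1c), against 9.69%. At day 4 they lay above for 7 (Mcm6, Mcm7, Tyms, Ccnd2, Cdk6, Cdkn1a and Aurkb), against 18.8% of all genes, and below for 5 (Ccnd1, Ccne2, Cdkn1c, Tpx2 and E2f2), against 10.3%.

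None of the 19 measured genes of mitosis passed the limma test between genotypes at either day, and at an unadjusted p under 0.05 there were 0 at day 15, where 16.9% of all genes were, and 2 at day 4, where 20.6% were. Their median difference was 0.00 at day 15 and 0.12 at day 4. A missed threshold does not show that levels were equal, but the 95% intervals bound the difference. At day 15 they lay within 2-fold for all 19 and within 1.5-fold for 16, with outer bounds of -0.69 and 0.72 log2. At day 4 they lay within 2-fold for all 19 and within 1.5-fold for 13, with outer bounds of -0.52 and 0.77. Averaged over the days, all 19 lay within 1.5-fold. The shares of all genes with intervals within these bounds were not computed, so the counts are not shown to be particular to these genes. For Mki67 the difference was 0.18 at day 15 (95% interval -0.19 to 0.54) and 0.18 at day 4 (95% interval -0.19 to 0.55).

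Over all 44 genes, intervals lay within 2-fold for 44 at each day, and within 1.5-fold for 39 at day 15 and 34 at day 4. Here too, the shares over all genes were not computed. Rrm2, which fell most with day by the brightest probe sets, differed by 0.00 between genotypes at day 15 (95% interval -0.29 to 0.29) and by 0.00 at day 4 (-0.29 to 0.28). The widest intervals belonged to genes whose replicates spread most, such as Cdk1 (-0.45 to 0.72 at day 15 and -0.39 to 0.77 at day 4).

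**Figure D4:**
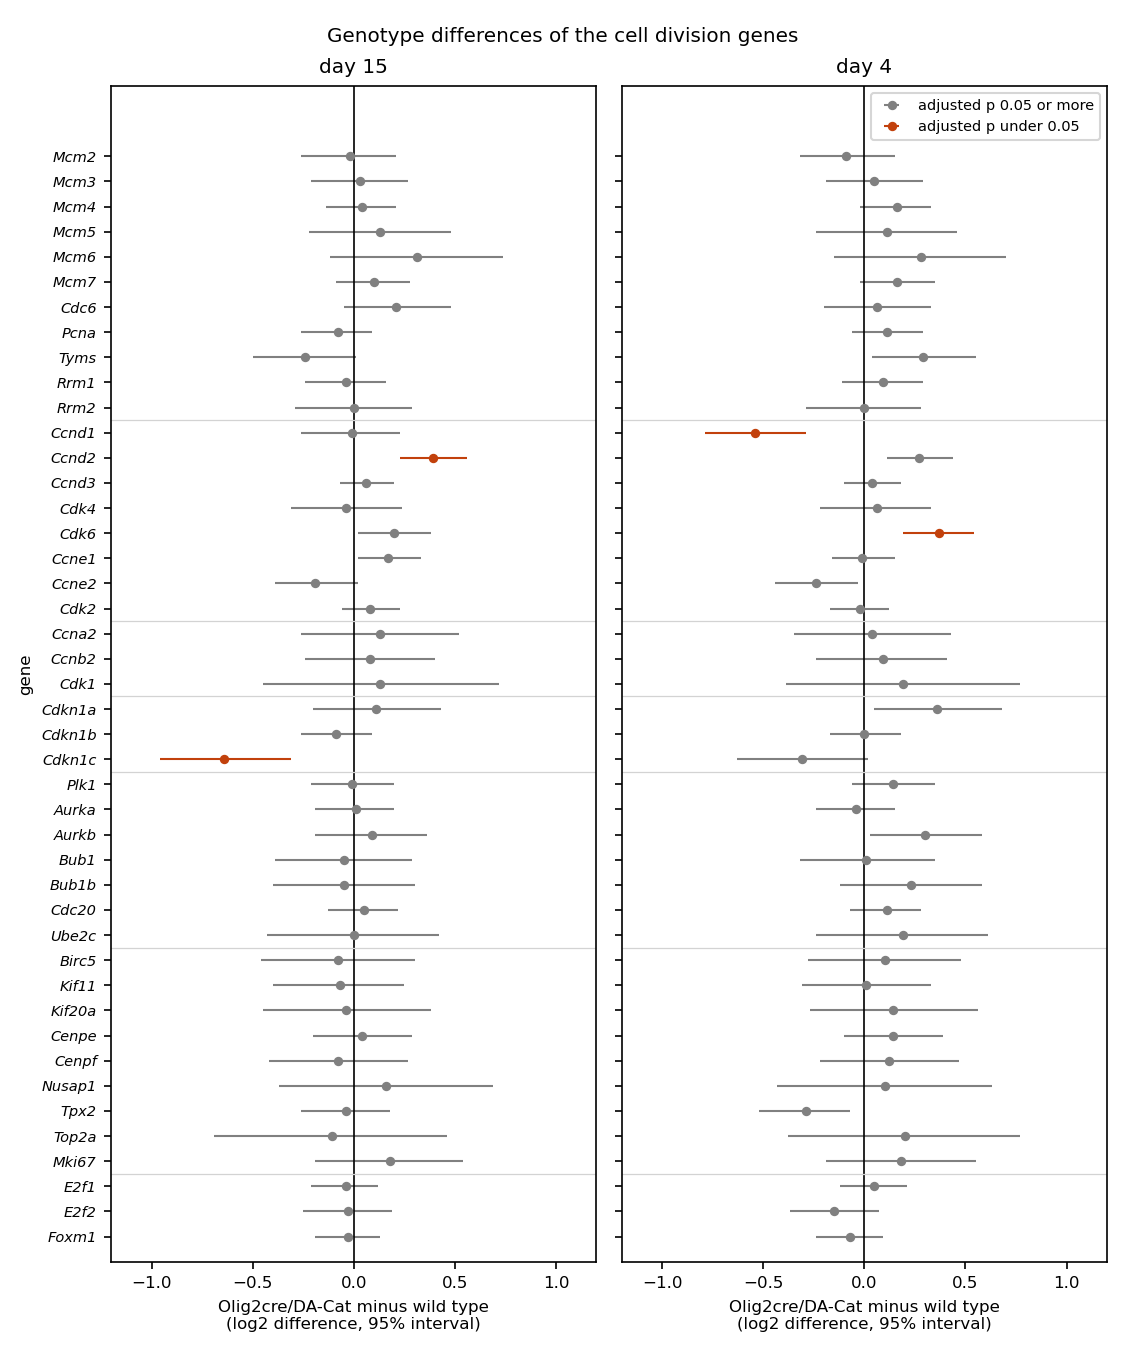
Difference between genotypes (Olig2cre/DA-Cat minus wild type, log2, with 95% intervals from the limma fit) of each cell division gene at day 15 (left) and day 4 (right). Ccnd2 and Cdkn1c at day 15 and Ccnd1 and Cdk6 at day 4 have adjusted p-values under 0.05, and the intervals of most other genes include 0.

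Ccnd2 was higher in Olig2cre/DA-Cat at day 15 and on average over the days. Its log2 signals at day 15 were 9.09, 9.17 and 9.18 in Olig2cre/DA-Cat, against 8.69, 8.68 and 8.88 in wild type. At day 4 they were 10.07, 10.30 and 10.27 in Olig2cre/DA-Cat, against 9.94, 9.97 and 9.91 in wild type. The genotypes did not overlap at either day. The difference was 0.39 ± 0.08 at day 15 (SE, adjusted p = 0.0149), 0.27 ± 0.08 at day 4 (adjusted p = 0.0761) and 0.33 ± 0.05 on average, a 1.26-fold higher level (adjusted p = 0.00268). The average passed the test in 22 of 22 alternative settings. Of its 7 probe sets, 4 were higher in Olig2cre/DA-Cat at day 15, and the range over the sets was -0.12 to 0.52 log2, with the lowest from a dim set whose mean was 3.09. The day 15 call alone was lost without Olig2cre/DA-Cat replicate 3 (adjusted p = 0.066), without wild-type replicate 1 (0.0705), without wild-type replicate 2 (0.0658) and with the compared groups alone (0.0793).

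Cdk6 had log2 signals of 6.87, 6.93 and 7.0 in Olig2cre/DA-Cat at day 15, against 6.62, 6.78 and 6.8 in wild type. At day 4 the signals were 8.07, 8.17 and 8.36 in Olig2cre/DA-Cat, against 7.78, 7.82 and 7.90 in wild type. Olig2cre/DA-Cat was above wild type on every array of the same day, by 0.20 ± 0.08 at day 15 (SE, adjusted p = 0.234), 0.37 ± 0.08 at day 4 (adjusted p = 0.0316) and 0.28 ± 0.06 on average (adjusted p = 0.0105). Its other probe sets gave 0.18 and -0.12 at day 4, and with the mean of the sets neither the day 4 difference (0.14, adjusted p = 0.274) nor the average (0.08, adjusted p = 0.334) passed. The day 4 call was also lost without Olig2cre/DA-Cat replicate 2 or 3 and without wild-type replicate 1 or 2 (adjusted p = 0.0913 to 0.131) and with the compared groups alone (0.0552).

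Ccnd1, often listed as a β-catenin target, was lower in Olig2cre/DA-Cat at day 4. Its log2 signals at day 15 were 8.93, 9.12 and 8.75 in Olig2cre/DA-Cat, against 8.97, 8.91 and 8.96 in wild type, which overlapped (difference -0.01, adjusted p = 0.963). At day 4 they were 8.88, 8.71 and 8.51 in Olig2cre/DA-Cat, against 9.44, 9.13 and 9.15 in wild type, with no overlap and a difference of -0.54 ± 0.11 (SE, 1.45-fold lower, adjusted p = 0.0263). The other probe sets gave -0.14 and -0.26 at day 4 (adjusted p = 0.455 and 0.286 over all probe sets). The call was lost without Olig2cre/DA-Cat replicate 2 (adjusted p = 0.0864) or 3 (0.119) and without wild-type replicate 1 (0.113).

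Cdkn1c, the inhibitor p57, was lower in Olig2cre/DA-Cat at day 15. Its log2 signals at day 15 were 9.59, 10.05 and 9.57 in Olig2cre/DA-Cat, against 10.29, 10.43 and 10.40 in wild type. At day 4 they were 9.39, 9.91 and 9.90 in Olig2cre/DA-Cat, against 9.91, 10.09 and 10.12 in wild type. The genotypes did not overlap at day 15, and at day 4 the highest Olig2cre/DA-Cat and the lowest wild-type value were both 9.91 after rounding. The differences were -0.64 ± 0.15 at day 15 (SE, 1.56-fold lower, adjusted p = 0.0397), -0.31 ± 0.15 at day 4 (adjusted p = 0.262) and -0.47 ± 0.11 on average (adjusted p = 0.0178). It had 1 probe set. The day 15 call was lost when any one of 5 arrays was left out, Olig2cre/DA-Cat replicate 1 or 3 or any wild-type replicate (adjusted p = 0.089 to 0.156), and with the compared groups alone (0.0917). The average was lost with the muscle level as a covariate (-0.46, adjusted p = 0.0529).

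**Figure D5:**
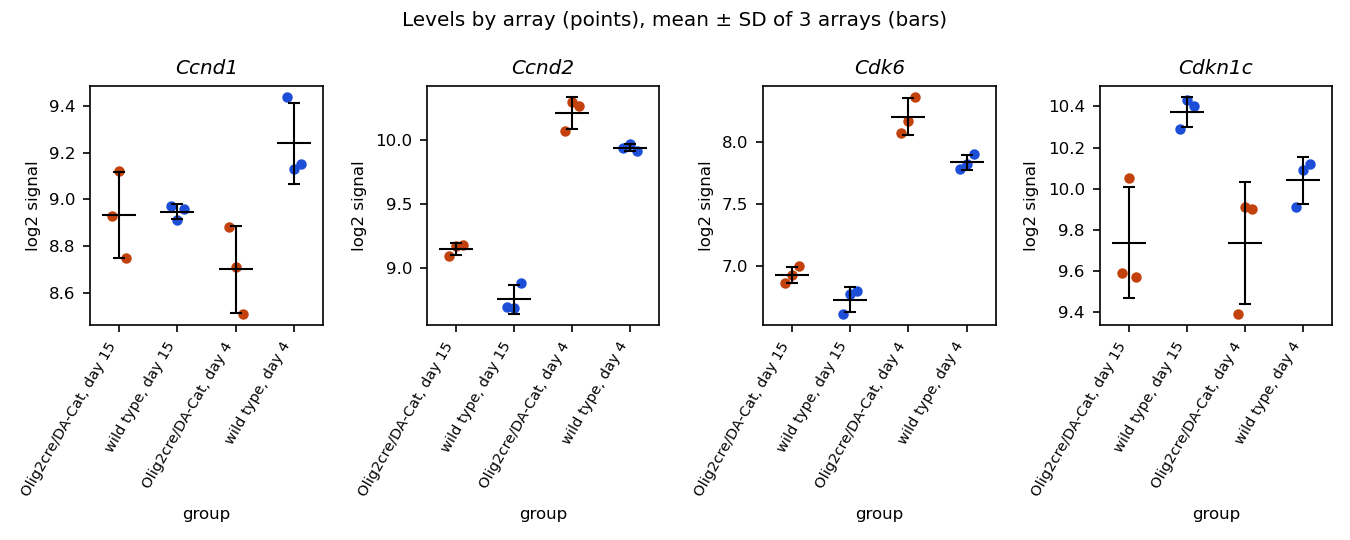
Log2 signal of Ccnd1, Ccnd2, Cdk6 and Cdkn1c on each array (points) with the mean and SD of 3 arrays (bars), Olig2cre/DA-Cat left of wild type and day 15 left of day 4; the y axes do not start at 0. Olig2cre/DA-Cat is above wild type at both days for Ccnd2 and Cdk6, below it at day 4 for Ccnd1 and below it at day 15 for Cdkn1c.

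Skeletal muscle and meningeal markers varied between arrays of the same group and were on the whole higher in Olig2cre/DA-Cat at day 15, though none passed the test. All 13 muscle genes had a higher mean in Olig2cre/DA-Cat at day 15 (median 1.82 log2). Their mean level by replicate was 10.62, 5.56 and 8.59 in Olig2cre/DA-Cat, against 6.62, 5.46 and 7.64 in wild type. The 8 meningeal and fibroblast genes all had a higher mean too (median 0.70 log2), with mean levels of 9.18 to 9.69 in Olig2cre/DA-Cat and 8.38 to 9.56 in wild type at day 15. With the muscle level as a covariate the day 15 differences were 0.36 for Ccnd2 (adjusted p = 0.0572) and -0.62 for Cdkn1c (adjusted p = 0.11). Neither passed the test, and without the covariate the differences were 0.39 for Ccnd2 and -0.64 for Cdkn1c. The part of muscle RNA in these differences was not tested. With the Eif2s3y covariate, Ccnd2 differed by 0.37 (adjusted p = 0.0513).

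Oligodendrocyte markers differed between genotypes at day 4, and their part in the differences of Ccnd1 and Cdk6 was not tested. Of 11 precursor markers, 6 were lower and 1 higher in Olig2cre/DA-Cat at day 4, with mean levels of 9.15 to 9.16 in Olig2cre/DA-Cat and 9.63 to 9.64 in wild type. At day 15, 2 of 11 were lower, with mean levels of 9.32 to 9.57 in Olig2cre/DA-Cat and 9.53 to 9.71 in wild type. Of 11 myelinating markers, 9 were lower at day 15 and 10 at day 4, with medians of -0.68 log2 at day 15 and -2.48 log2 at day 4. Of 10 astrocyte markers 2 were lower at day 4, of 10 neuron markers 1 was higher at day 4, and none of the microglia, endothelium, ependyma or red blood cell markers passed the test at either day. These counts are to be read beside the shares over all genes. Those were 1.3% higher and 1.81% lower at day 4, and 0.616% higher and 2.31% lower at day 15.

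The genotype effect on cell division genes was not shown to differ between the days. No gene of the 44 passed the limma test of the difference of effects, where 0.192% of all genes were higher and 0.159% lower, and 2 of 44 (Ccnd1 and Tyms) had an unadjusted p under 0.05, where 10.1% of all genes did. Ccnd1 had a difference of effects, day 15 minus day 4, of 0.52 ± 0.16 log2 (SE, adjusted p = 0.291), and Tyms one of -0.53 ± 0.17 log2 (adjusted p = 0.296). The median over the 44 genes was -0.06, against -0.01 over all genes. The 95% interval of the difference lay within 2-fold for 43 genes and within 1.5-fold for 29, and the shares over all genes were not computed.

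Of the wider cell cycle lists, the 28 replication genes had none past the test at either day. At an unadjusted p under 0.05 there were 3 of 28 at day 15 and 10 of 28 at day 4, against 16.9% of all genes at day 15 and 20.6% at day 4. Averaged, 2 of the 28 were higher in Olig2cre/DA-Cat, where 4.19% of all genes were higher and 4.12% lower. They were Slbp, which binds histone mRNA, by 0.15 log2 (adjusted p = 0.0342) and Cdt1 by 0.23 log2 (adjusted p = 0.0363). In the list of 39 genes of mitosis and cytokinesis only Anln passed at each day, with differences of -1.22 log2 at day 15 (adjusted p = 0.000151) and -0.98 log2 at day 4 (adjusted p = 0.000157). Its mean levels were 9.58 ± 0.24 in Olig2cre/DA-Cat and 10.80 ± 0.06 in wild type at day 15, and 6.84 ± 0.05 in Olig2cre/DA-Cat and 7.82 ± 0.12 in wild type at day 4 (SD, n = 3 each). On average Anln was lower by 1.10 log2 and Racgap1 higher by 0.19 log2 (adjusted p = 0.0411).

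Of 37 other regulators, Btg2, an antiproliferative gene, was higher in Olig2cre/DA-Cat at day 15 (0.50 log2, adjusted p = 0.0233), and Lin54, the DNA-binding subunit of the MuvB core that recognises the CHR, was lower (-0.36 log2, adjusted p = 0.0362). Over all genes, 0.616% were higher and 2.31% lower at day 15. None of the 37 passed at day 4. At an unadjusted p under 0.05 there were 7 of 37 at day 15 and 4 of 37 at day 4. The shares of all genes were 16.9% at day 15 and 20.6% at day 4. On average 3 were higher, Btg2 by 0.32 log2 (adjusted p = 0.0211), Cdkn2c, an inhibitor of Cdk4 and Cdk6, by 0.20 (0.0437) and Cdc25a, a Cdk-activating phosphatase, by 0.16 (0.0467), and Lin54 was lower (-0.23, 0.0316). On average 4.19% of all genes were higher and 4.12% lower. Averaged over the days, 11 of 37 had an unadjusted p under 0.05, where 25.8% of all genes did. Mycn, N-Myc, had 8.18 ± 0.11 in Olig2cre/DA-Cat and 7.48 ± 0.07 in wild type at day 4 (SD, n = 3 each), a difference of 0.70 log2 (adjusted p = 0.0539).

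Replicates of the mitotic genes spread more at day 15 than at day 4, and whole arrays also correlated less at day 15. Over all probe sets, the mean correlation of an array with its replicates at day 15 was 0.9935 to 0.9951 in Olig2cre/DA-Cat and 0.9946 to 0.9961 in wild type. At day 4 it was 0.9965 to 0.997 in Olig2cre/DA-Cat and 0.9964 to 0.9966 in wild type. For the mitotic genes, the median SD between replicates was 0.24 log2 in Olig2cre/DA-Cat and 0.31 in wild type at day 15, and 0.15 in Olig2cre/DA-Cat and 0.11 in wild type at day 4. At day 15 the mean level of the 19 mitotic genes was 5.78, 6.29 and 6.11 in the Olig2cre/DA-Cat replicates, against 6.03, 5.81 and 6.28 in the wild-type replicates. Olig2cre/DA-Cat replicate 1 was the lowest of its group in 18 of the 19 genes and replicate 2 the highest in 16. Wild-type replicate 2 was the lowest in 13 and replicate 3 the highest in 15. Olig2cre/DA-Cat replicate 1, with the lowest mitotic mean of its group, was the array with the most muscle signal. Wild-type replicate 3, with the highest mitotic mean of its group, was the wild-type day 15 array with the most. The part of muscle RNA in these levels was not tested. At day 4 the means lay between 7.27 and 7.46 in Olig2cre/DA-Cat and between 7.24 and 7.36 in wild type. Cdc6, Aurkb and Kif20a had group means under 5 at day 15 in both genotypes, near the dim end of the arrays.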

How the data were processed

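Total RNA of 12 mouse spinal cord samples was hybridised to Affymetrix 3' arrays, with 3 biological replicates in each of 4 groups, per the labels' protocols. The table deposited by the authors holds a log2 signal for every probe set and array. The log2 scale was inferred from the range (array medians 6.14 to 6.19, lowest array maximum 14.71). Background correction, summarisation and normalization by the authors are not given in the sources used here. Arrays carry no read depth, and their number limits the precision.

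In the platform annotation 34958 of 45101 probe sets carry a single symbol, 932 carry several and 9211 are unnamed. Each of the 18194 genes was represented by its brightest probe set (highest mean over the arrays), and 9012 genes had more than 1. For 34754 probe sets the Entrez identifier was found in a RefSeq gene table (GRCm38.p6). A single linear model with 4 group means was fitted to the 12 arrays with limma 3.58.1 in R 4.3.3, with empirical Bayes moderation, 8 residual degrees of freedom, two-sided p-values, Benjamini-Hochberg adjustment over all genes and a threshold of 0.05. All p-values of single genes come from limma fits. The fit was tested on simulated data.

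The members, roles, pathway lists and markers were chosen with earlier results of these data known. Values per array are given for members past the threshold between genotypes and for the 2 members of each role with the smallest p between days in wild type. Up to 4 members of each pathway list are named per contrast by smallest p. Other members appear with their fitted values. Alternatives were quantile normalization, median centring, filters on the dimmest 30% or 50% of genes, the mean of a gene's probe sets, trend and robust settings, array weights, covariates for muscle and Eif2s3y, a replicate block, fits of the compared groups alone and leaving out each array.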

Additional observations from a re-analysis of the deposited data

How the results depend on the processing

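Of the members called between days, 36 of 39 in Olig2cre/DA-Cat and 35 of 37 in wild type were called in the same direction in every alternative that tested them. The calls lost in at least 1 were those of Ccne1, Cdkn1b and E2f2 in Olig2cre/DA-Cat and of Cdk4 and Pcna in wild type. Leaving out 1 array at a time gave 36 to 40 called members in Olig2cre/DA-Cat and 35 to 37 in wild type. Without the dimmest 50% of genes, 19 members were called in each genotype, of 22 still tested. Tpx2 turned to -0.51 in Olig2cre/DA-Cat with the mean of its probe sets. At day 15 between genotypes (2 called) there were 0 with the muscle covariate, 1 with the Eif2s3y covariate, 0 with the compared groups alone and 0 to 2 without 1 array. At day 4 (2 called) there were 1 with the mean of probe sets, 5 with array weights and 0 to 3 without 1 array, and the compared groups alone gave 2 with Cdkn1a (adjusted p = 0.0259) in place of Cdk6. Averaged over days (3 called) there were 2 with the muscle covariate (Cdkn1c lost), 2 with the mean of probe sets (Cdk6 lost), 5 without the dimmest 30%, 6 with array weights, 6 with the Eif2s3y covariate and 3 to 6 without 1 array. The cause was not tested. The difference of effects gave 0 members throughout, leave-one-out included (0 to 0). Over all genes the called counts ranged from 136 to 935 (main 533) at day 15, from 260 to 2164 (567) at day 4, from 798 to 3006 (1512) on average and from 45 to 118 (64) for the difference of effects. With the replicate number as a block, the members called were 2 at day 15, 2 at day 4, 4 on average (Ccnd1 added, adjusted p = 0.0383), 39 for each day contrast and 0 for the difference of effects. Deviations of same-numbered samples correlated at 0.02 to 0.30 between genotypes of the same day and at -0.30 to 0.10 between days. Not every pair was over 0.1, so the numbers were taken as names and not as pairs.

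With 3 arrays a group, precision is as wide as the 95% intervals given. No detection call was used, the nearly equal array medians hide any shift shared by most genes, and levels under 5 log2 lie near the dim end of the arrays.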
